A study of Mus musculus with 2 samples.

Results

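Mir103-1, Mir103-2 and Mir107 are 3 related microRNA genes that lie in introns of the pantothenate kinase genes Pank3, Pank2 and Pank1. They were chosen by symbol and host gene, a rule that uses no measured value but was set with earlier results of these data known, and are 3 of the 2202 microRNA genes counted in hippocampus. The tissue, labelled as a layer of hippocampus, came from males of B6CASTF1/J, the F1 hybrid between C57BL/6J and CAST/EiJ mice, aged 36 days. MicroRNA-seq of total RNA gave 2 libraries, labelled biological replicates 1 and 2 of a single group with no treatment named, from separate tissue samples that carry the same donor label. Nothing in the labels says how many animals gave each sample, so p-values between the libraries measure their difference alone.

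A microRNA is cut from a hairpin transcript, and each side of the hairpin can give a mature strand of about the length of a small interfering RNA, named 5p or 3p by its side. Bases 2 to 8 of the mature strand, the seed, pair with target messenger RNAs and lower their output. Pantothenate kinases carry out the first committed step of coenzyme A synthesis, and their introns have carried these microRNAs through vertebrate evolution. The 3p strands miR-103 and miR-107 are the main products in most tissues and are known as regulators of insulin sensitivity, lipid metabolism and Dicer, the enzyme that finishes microRNA processing. In neurons miR-107 has been studied for its repression of BACE1, the protease that starts amyloid production.

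The hairpins are shown because the 3 genes share long stretches, and reads that match several places are not counted. Their sequences are from RefSeq (GRCm38.p6, the assembly also called mm10), 5′ to 3′, with the mature strands in capitals, first the 5p and then the 3p strand.
Mir103-1: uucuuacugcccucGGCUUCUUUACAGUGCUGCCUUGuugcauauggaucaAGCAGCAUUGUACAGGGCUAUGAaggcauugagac
Mir103-2: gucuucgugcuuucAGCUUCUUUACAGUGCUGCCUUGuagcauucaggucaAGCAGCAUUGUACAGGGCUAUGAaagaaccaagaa
Mir107: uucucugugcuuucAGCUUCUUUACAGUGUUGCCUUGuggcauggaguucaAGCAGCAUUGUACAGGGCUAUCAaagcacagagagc

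The mature strands are shown with the seed in capitals, to compare them base by base.
miR-103-3p (Mir103-1 and Mir103-2): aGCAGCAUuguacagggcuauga
miR-107-3p (Mir107): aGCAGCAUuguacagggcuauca
miR-103-1-5p (Mir103-1): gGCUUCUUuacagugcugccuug
miR-103-2-5p (Mir103-2): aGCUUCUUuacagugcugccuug
miR-107-5p (Mir107): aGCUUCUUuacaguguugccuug

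The 3 genes matched RefSeq by symbol and by position, and their hairpins are 80.2% (Mir103-1 and Mir103-2), 80.5% (Mir103-1 and Mir107) and 83.9% (Mir103-2 and Mir107) identical in a global alignment. In each hairpin the 5p strand takes bases 15 to 37 and the 3p strand bases 52 to 74. The 3p strand of Mir103-1 and Mir103-2 is the same 23 bases, and that of Mir107 differs by G22C, counted from 1 at the 5′ end of the mature strand with the base of miR-103-3p first. All 3 therefore share the 3p seed GCAGCAU, which no other gene in the RefSeq microRNA table carries. On the 5p side miR-103-1-5p differs from miR-103-2-5p by G1A, and miR-103-2-5p from miR-107-5p by C16U. These 5p strands also share a seed, GCUUCUU.

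A read of such a strand can be placed on 1 gene only if it runs over a base that differs. Among the annotated microRNA hairpins, a read from the first base of miR-107-3p fits all 3 genes up to a length of 21 and fits Mir107 alone from a length of 22. A read from the first base of miR-103-3p fits both Mir103 genes up to a length of 24 and 1 of them only from 25, which is longer than the annotated strand. The 5p strands are told apart from a length of 16 on, the shortest length searched, provided that the read holds the first base of the strand, since the 5p stretches of Mir103-1 and Mir103-2 are otherwise the same. The longest run of identical bases is 27 between Mir103-1 and Mir103-2 and 24 between either of them and Mir107, and it begins at hairpin base 49 in each case. Of all 20-base windows, 12 of 67 in Mir103-1, 16 of 67 in Mir103-2 and 9 of 68 in Mir107 occur in at least 1 other microRNA gene. Each of these windows is held by other members of the trio and by no gene outside it, so all 3 genes share a 20-base stretch, and did so with stretches of 16, 18 and 22 bases. Sequence outside annotated microRNA genes was not searched.

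**Figure D1:**
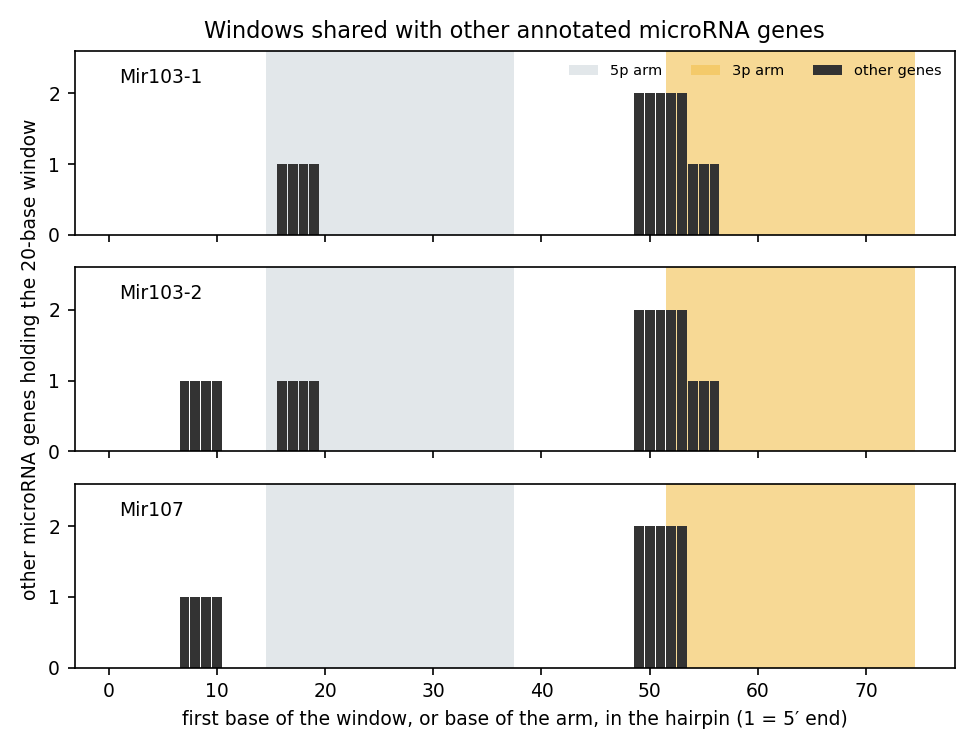
For each base of the 3 hairpins (x axis, 1 is the 5′ end), the number of other annotated microRNA genes that hold the 20-base window starting there (bars, y axis), with the 5p strand in grey and the 3p strand in yellow. Windows that start at bases 49 to 53, at the 5′ end of the 3p strand, occur in both other genes. The Mir103 genes share further windows that start at bases 16 to 19 and 54 to 56. Mir103-2 and Mir107 share those that start at bases 7 to 10.

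Mir103-1 (ENSMUSG00000065553.1) lies on the plus strand of chromosome 11 at 35782396 to 35782481 (mm10), in Pank3. Mir103-2 (ENSMUSG00000065563.1) lies on the plus strand of chromosome 2 at 131288052 to 131288137, in Pank2, the gene mutated in a human neurodegeneration with brain iron accumulation. Mir107 (ENSMUSG00000065594.1) lies on the minus strand of chromosome 19 at 34820687 to 34820773, in Pank1. Each one has the same strand as its host and lies between exons 5 and 6 of the host's principal transcript, which has 7 exons. The intron is 1740 bases long in Pank3, 5801 in Pank2 and 7282 in Pank1. The hairpin starts 688, 454 and 326 bases after exon 5, in that order. No other annotated gene overlaps them, and the nearest other microRNA gene is 70074 bases away for Mir107, 165471 for Mir103-1 and 247654 for Mir103-2, so they belong to no cluster. Pank messenger RNA was not analysed here.

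Counts assigned to microRNA genes on their own strand came to 4404040 in replicate 1 and 5279877 in replicate 2. Reads that match several places, 5017585 and 7087928, enter no gene. A count of 0 allows up to 3 counts, which is 0.681 CPM in replicate 1 and 0.568 CPM in replicate 2, where CPM is the gene's count divided by its library's assigned counts, times 1000000. Intervals and floors cover counting error only, since reads amplified without molecular identifiers are not independent molecules. As a check of the tissue label, 13 brain microRNA genes summed to 36681 and 39598 CPM, of which Mir132 gave 23835 and 17251. At least 10 counts in both libraries were reached by 9 of the 13. Mir124a-3 had 0 counts in both libraries, Mir124a-1 had 11 and 8, and Mir9-2 had 10 and 9. Every mature strand of Mir9-2 is also that of another gene, so reads of a whole strand fit more than 1 gene. The Mir124a genes were not matched to mature strands, so sharing was not examined for them. These low values are counts of reads placed on 1 gene and not amounts of miR-124 or miR-9. The 7 muscle genes summed to 100.1 and 109.3 CPM, of which Mir206 gave 98.1 and 107.2, with Mir1a-1, Mir133a-1 and Mir133a-2 at 0. The liver gene Mir122 had 30.2 and 27.7 CPM. The vessel wall genes Mir126a, Mir143 and Mir145a summed to 16250 CPM in replicate 1 and 43835 CPM in replicate 2, a rise that came from Mir126a (9729 and 37937 CPM), while Mir143 went from 6311 to 5658 CPM and Mir145a from 209.4 to 240.5 CPM.

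Nearly all counts of the trio came from Mir107. Mir107 had 17553 counts in replicate 1 and 9338 in replicate 2, or 3986 CPM (95% exact Poisson interval 3927 to 4045) and 1769 CPM (1733 to 1805). It ranked 44th and 72nd among all genes. Mir103-2 had 136 and 64 counts, or 30.9 CPM (25.9 to 36.5) and 12.1 CPM (9.34 to 15.5). Mir103-1 had 12 and 16 counts, or 2.72 CPM (1.41 to 4.76) and 3.03 CPM (1.73 to 4.92).

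The order was therefore Mir107, Mir103-2 and Mir103-1 in both libraries, and the intervals of neighbouring genes did not overlap in either. As means, Mir107 stood at 2877 ± 1568 CPM, Mir103-2 at 21.5 ± 13.3 CPM and Mir103-1 at 2.88 ± 0.216 CPM (SD, n = 2). All 3 genes had at least 10 counts in both libraries, as did 411 of all genes (18.7%). Together the trio made up 0.402% of replicate 1 and 0.178% of replicate 2, with 95% Wilson intervals of 0.396 to 0.408 and 0.175 to 0.182, and of this Mir107 gave 99.16% and 99.15%. The opposite strand held 0 counts at each of the 3 genes in both libraries, and the counts regardless of strand were the same as those on the gene's own strand.

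These are counts of reads that were placed on 1 gene and not amounts of miR-103 and miR-107. The counts are per gene and do not separate the 5p from the 3p strand, so which strand gave the 12 to 136 counts of the Mir103 genes was not tested. By the rule above, reads of the whole miR-103-3p strand fit more than 1 gene, and such reads fall among those that match several places, which outnumber the trio's counts 283 times in replicate 1 and 753 times in replicate 2. Reads from the first base of miR-107-3p that are 21 bases or shorter also fit more than 1 gene. What part of the reads that match several places is miR-103-3p or miR-107-3p was not tested.

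**Figure D2:**
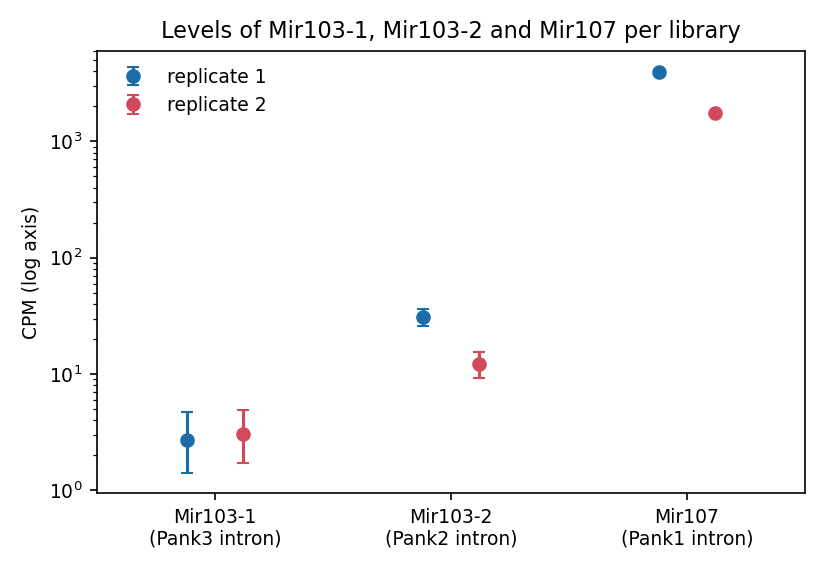
Level of each gene in CPM (y axis, log scale) in replicate 1 (blue) and replicate 2 (red), with 95% exact Poisson intervals, which are narrower than the points for Mir107. Mir107 at 1769 to 3986 CPM stands above Mir103-2 at 12.1 to 30.9 CPM and Mir103-1 at 2.72 to 3.03 CPM in both libraries.

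Ratios between the 3 genes do not depend on how the libraries are scaled. The hairpins are 86, 86 and 87 bases long, so a ratio per base is nearly the same as a ratio of counts. Mir107 had 129 times the counts of Mir103-2 in replicate 1 (95% exact binomial interval 109 to 154) and 146 times in replicate 2 (114 to 190). The change between the libraries did not pass Fisher's exact test (two-sided, adjusted p = 0.456 over the 3 pairs), and the ratio in replicate 1 was 0.885 times that in replicate 2, with an exact interval of 0.646 to 1.20.

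Mir103-1 stood apart from that proportion. Mir107 had 1463 times its counts in replicate 1 (837 to 2831) and 584 times in replicate 2 (359 to 1021), a 2.51-fold change of the ratio (exact interval 1.11 to 5.81, Fisher's exact test, adjusted p = 0.0248). Mir103-1 had 0.0882 times the counts of Mir103-2 in replicate 1 (0.0445 to 0.159) and 0.250 times in replicate 2 (0.135 to 0.438), which also passed (Fisher's exact test, adjusted p = 0.0248). Both of these results rest on the 12 and 16 counts of Mir103-1, and the test covers counting error alone.

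Counts placed on Mir107 and Mir103-2, relative to library size, were lower in replicate 2 than in replicate 1. Reads that match several places were 40.3% of reads in replicate 1 and 46.5% in replicate 2. Their part in this difference was not tested. Each gene's pair of counts was put to an exact conditional binomial test (two-sided), with library sizes adjusted by edgeR's TMM factors and Benjamini-Hochberg adjustment over the 504 genes with 10 or more counts in total. Mir107 was 2.28-fold lower in replicate 2 (exact interval 2.22 to 2.34), with a log2 ratio of -1.19 on log2(CPM + 1) values and an adjusted p too small to be stored as other than 0. Mir103-2 was 2.58-fold lower (1.90 to 3.53), with a log2 ratio of -1.30 and an adjusted p of 3.88e-10 in the exact binomial test. Mir103-1 had a log2 ratio of 0.10 and did not pass (exact binomial test, adjusted p = 0.903), and its fold of replicate 1 over replicate 2, 0.910, had an exact interval of 0.393 to 2.05.

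So 2 of the 3 genes were lower in replicate 2 and none was higher, where 23.2% of all tested genes were lower, 32.5% higher and 55.8% either. Only 11 of the 504 genes had a lower log2 ratio than Mir103-2 and 15 a lower one than Mir107, while the median over all tested genes was 0.05. Among the 313 genes with 100 or more counts in total, scaled and adjusted on their own, the balance turned: 41.5% were lower and 39% higher, and Mir107 and Mir103-2 were again lower. The test allows counting error alone, while the spread that edgeR's intercept-only fit gave for these libraries was a coefficient of variation of 0.425. With a coefficient of variation of 0.3 in a beta-binomial test, neither Mir107 (adjusted p = 0.475) nor Mir103-2 (adjusted p = 0.398) passed. The endothelial gene Mir126a was higher in replicate 2 while Mir143, typical of smooth muscle, was lower (values above), and their part in the result was not tested.

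**Figure D3:**
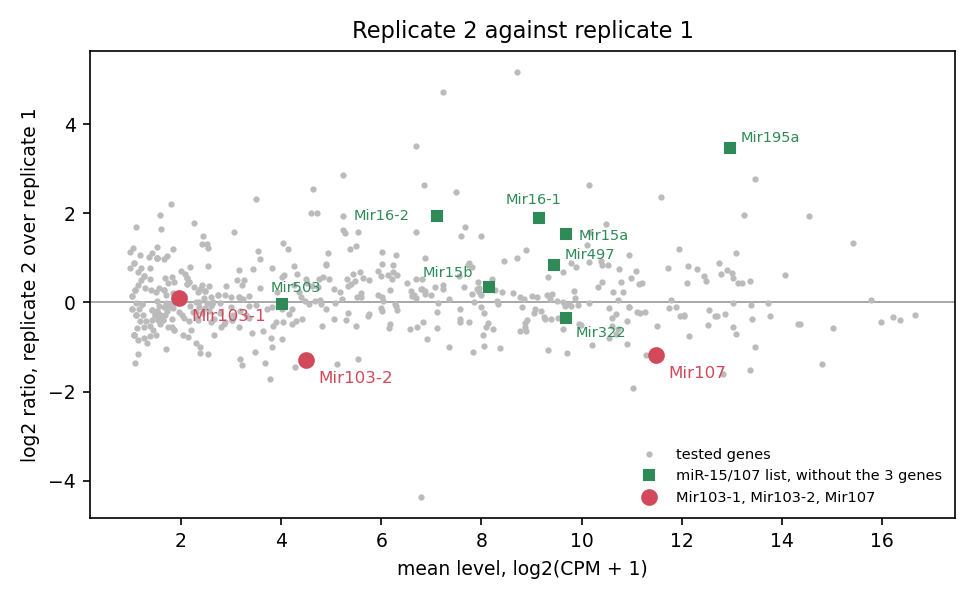
Log2 ratio of replicate 2 over replicate 1 (y axis) against mean level as log2(CPM + 1) (x axis) for the 504 tested genes (grey), with the trio in red and the 8 tested relatives of the miR-15/miR-107 list in green. Mir107 (-1.19) and Mir103-2 (-1.30) lie at the lower edge, Mir103-1 (0.10) near 0, and 6 of the 8 relatives above 0.

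The trio belongs to a wider group whose mature strands carry the letters AGCAGC at or next to their 5′ end. In miR-103-3p and miR-107-3p these letters begin at base 1. A list of 10 relatives by name was compared with them, of which 9 have a RefSeq strand with the letters at base 2, so that the seeds are shifted by 1 base. Mir497b, the remaining one, overlaps Mir497 on the opposite strand and has no such strand. The seed AGCAGCA belongs to 11 genes in RefSeq, and the 3 outside the list, Mir6342, Mir6353 and Mir6419, had 0 counts in both libraries. Among the relatives, miR-15 and miR-16 are known to hold back cell division and survival through cyclins and Bcl2. Strands of 3 relatives are shown with the seed in capitals, for comparison with GCAGCAU above.
miR-15a-5p (Mir15a): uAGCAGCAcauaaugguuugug
miR-195a-5p (Mir195a): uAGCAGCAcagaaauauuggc
miR-503-5p (Mir503): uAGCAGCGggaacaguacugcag

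Of the 10 listed genes, 8 had at least 10 counts in each library, as did 18.7% of all genes. Mir195b and Mir497b had 0 counts in both. Their median level, log2(CPM + 1) of the mean, was 8.65, against 0 over all genes. Mir195a, at 1303 CPM in replicate 1 and 14651 CPM in replicate 2, was the highest, and Mir107 stood above it in replicate 1 and below it in replicate 2. Mir107 exceeded each other detected gene of the list in both libraries: Mir15a (418 and 1235 CPM), Mir322 (917 and 723 CPM), Mir497 (499.5 and 905 CPM), Mir16-1 (239.6 and 899 CPM), Mir15b (248 and 319 CPM), Mir16-2 (56.1 and 220.1 CPM) and Mir503 (15.2 and 15.0 CPM). Mir16-1 and Mir16-2 share a 20-base stretch, so their counts are uncertain in the same way as those of the Mir103 genes.

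Where the trio's called genes were lower in replicate 2, 6 of the 8 tested relatives were higher (32.5% of all tested genes), 1 was lower (23.2%) and 1, Mir503, did not pass (log2 ratio -0.04, exact binomial test, adjusted p = 0.916). All 8 had 100 or more counts in total, and among such genes 39% were higher and 41.5% lower. These relatives lie in neighbouring pairs on the same strand: Mir15a with Mir16-1, Mir15b with Mir16-2, Mir195a with Mir497, and Mir322 with Mir503. Both genes of each pair but the last were higher, so the 6 higher genes are not 6 independent results. The highest log2 ratios were 3.47 for Mir195a, 1.94 for Mir16-2 and 1.89 for Mir16-1, and Mir322 had -0.36. The median over the list was 1.19. The ratio of Mir107 to Mir195a went from 3.06 (95% exact binomial interval 2.97 to 3.15) to 0.121 (0.118 to 0.123), and that of Mir107 to Mir322 from 4.35 (4.20 to 4.50) to 2.45 (2.35 to 2.54). The 2 libraries thus differed in which seed relative gave more counts.

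Among microRNAs of paralogous host genes, the miR-26 genes were the ones most like the trio. They lie in the Ctdsp phosphatase genes, Mir26a-1 and Mir26b in introns and Mir26a-2 in an annotated exon, and as in the trio a pair of them share a mature strand while the remaining one differs in it by a few bases. These strands are shown with the seed in capitals.
miR-26a-5p (Mir26a-1 and Mir26a-2): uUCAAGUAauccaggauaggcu
miR-26b-5p (Mir26b): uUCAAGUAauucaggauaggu

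Over the shorter strand these differ by C11U and C21U, with the base of miR-26a-5p first. Mir26b, in Ctdsp1, had 27660 and 53330 counts, against 932 and 50 for Mir26a-1 and 542 and 448 for Mir26a-2. Mir26b thus exceeded Mir26a-1 by 29.7 times in replicate 1 and 1067 times in replicate 2, and Mir26a-2 by 51.0 and 119 times. In both trios the gene that shares no whole mature strand had the most counts, but the order of the sharing pair turned between the libraries for miR-26a and not for miR-103. The direction between the libraries differed: Mir26b was higher in replicate 2 (log2 ratio 0.67), and the ratio of Mir107 to Mir26b was 3.62 times as high in replicate 1 as in replicate 2 (exact interval 3.52 to 3.73).

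Other pairs that share a strand differed in level. Mir128-1 and Mir128-2 share their 3p strand and had 23956 and 63088 counts (Mir128-1) and 4617 and 9999 (Mir128-2). Mir218-1 and Mir218-2, in the axon guidance genes Slit2 and Slit3, share their 5p strand and had 88 and 200 (Mir218-1) and 933 and 1401 counts (Mir218-2). Mir204, in Trpm3, had 601 and 707 times the counts of Mir211, in Trpm1, and these share no stretch of 20 bases. The heart genes Mir208a (0 and 3 counts) and Mir208b (8 and 6) were near or under the floor. Of the 10 tested genes of this list, 6 were higher in replicate 2 (32.5% of all tested genes) and 2 lower (23.2%). Across the 1018 genes of the files that matched a RefSeq entry with mature strands by symbol, 57 share 1 strand with another gene and have another of their own, as the Mir103 genes do. A minimum of 10 counts in each library was reached by 40 of them (70.2%, with a 95% Wilson interval of 57.3 to 80.5). It was reached by 321 of 924 genes that share no strand (34.7%, 31.7 to 37.9) and by 6 of 37 that share every strand (16.2%, 7.65 to 31.1). The median of the 57 genes was 29.7 CPM, above the 21.5 CPM of Mir103-2 and the 2.88 CPM of Mir103-1. The median was 0.530 CPM for genes that share no strand and 0 CPM for those that share every strand. These counts are a description, since genes of a family are not independent and the classes hold different genes. Whether sharing a strand changes a gene's count was not tested.

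**Figure D4:**
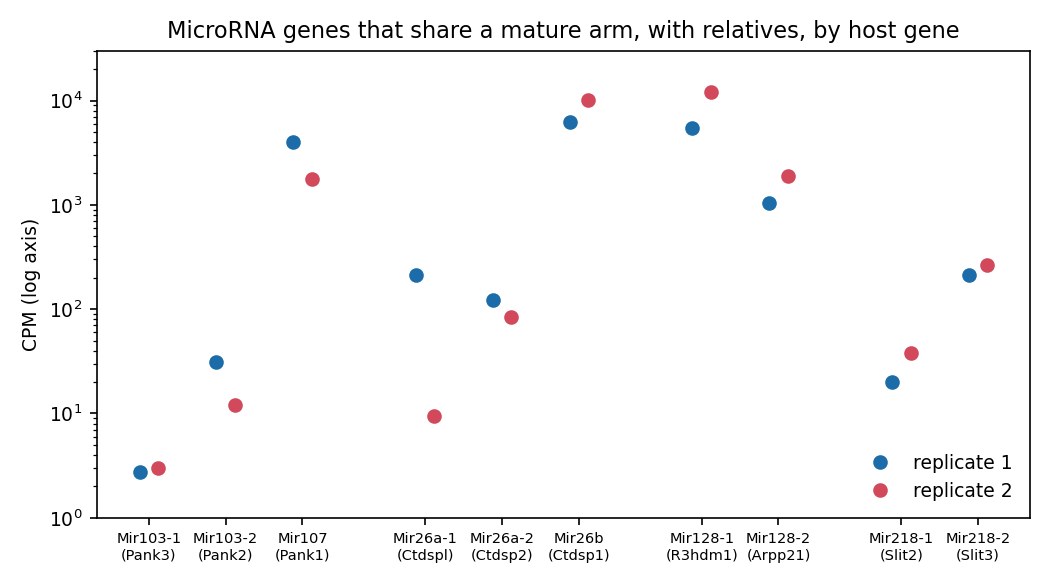
Level in CPM (y axis, log scale) of microRNA genes that share a mature strand, and of their relatives Mir107 and Mir26b, in replicate 1 (blue) and replicate 2 (red), with the host gene in brackets. Mir107 and Mir26b stand above the pair that shares a strand in their trio, and Mir128-1 and Mir128-2, which share one, stand at 1048 CPM or higher.

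The genes nearest to each member over the 2 libraries, by Euclidean distance of log2(CPM + 1), were found among all genes. With 2 libraries this likeness covers level and 1 difference only. Mir107 lay closest to Mir298 (17752 and 8767 counts, distance 0.09), Mir320 (15107 and 8108, distance 0.30) and Mir7b (14976 and 12628, distance 0.49). All 3 were lower in CPM in replicate 2, as Mir107 was, which the choice by nearness over these same libraries favours. Mir103-2 lay closest to Mir3070b (121 and 50 counts, distance 0.36), Mir5099 (91 and 78) and Mir3547 (94 and 84). Mir103-1 lay closest to Mir378d (13 and 16 counts, distance 0.09), Mir6985 (13 and 18) and Mir196a-2 (10 and 15), all near the lowest counts that entered the test.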

How the data were processed

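The authors deposited raw counts per microRNA gene for each library. The assembly was mm10 and the annotation GENCODE M21, per the file notes. An aligner is not given in the sources used here. Count tables came without a header, and their columns (either, own and opposite strand) and the lines that name no gene were read from the values. Those lines, 64.7% and 65.4% of reads in replicates 1 and 2, stayed out of library sizes and tests. Own-strand counts were used. All 2202 identifiers matched GENCODE M21. Replicate numbers are those in the labels.

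Counts were compared with exact binomial tests and Fisher's exact tests (scipy 1.17.1), TMM factors of 0.994 and 1.01 (edgeR 4.0.16, R 4.3.3), 10 or more counts in total, a threshold of 0.05 and 1 CPM added before logarithms. With 1 library on each side, edgeR's quasi-likelihood test could not be fitted. DESeq2 1.42.0 gave alternative size factors. The test was checked on simulated counts with counting error alone, scaled by total counts, so the check does not cover spread between libraries. The members and lists were chosen with earlier results of these data known. Genes named are the trio, the lists of miR-15/miR-107, paralogous intron and metabolic genes, and the 3 nearest genes to each member. Mapping of CAST/EiJ alleles was not tested.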

Additional observations from a re-analysis of the deposited data

How the results depend on the processing

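Mir107 and Mir103-2 were lower in replicate 2 under every alternative scaling, count minimum, pseudocount and strand setting tried, with log2 ratios from -1.32 to -1.13 and from -1.42 to -1.25. Both calls were lost with a coefficient of variation of 0.3 in the test, at the unchanged log2 ratios of -1.19 and -1.30, and the number of genes that differed fell from 281 to 149 at 0.1 and to 14 at 0.3, since those tests allow more than counting error. Mir103-1 did not pass in any setting that held it and has no value with a minimum of 100 counts. Per 1000000 reads of any kind, Mir107 stood at 1011, Mir103-2 at 7.56 and Mir103-1 at 1.01, and the trio took 0.102% of reads, as the divisor then holds reads of no gene. With either-strand counts the level of Mir103-1 was 3.13 CPM, from a smaller total. Levels with 1 library left out were 1769 and 3986 CPM for Mir107, 12.1 and 30.9 for Mir103-2, and 2.72 and 3.03 for Mir103-1. No test between the libraries can be made with 1 left out. With a minimum of 100 counts, 122 genes (39%) were higher and 130 (41.5%) lower in replicate 2, against 164 (32.5%) and 117 (23.2%). The 12 and 16 counts of Mir103-1 limit what can be seen of it.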

Other observations

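Other microRNAs known for roles in lipid, glucose or insulin regulation, the field in which miR-103 and miR-107 are best known, showed no shared direction between the libraries. Of the 8 such genes in the annotation, 7 reached 10 counts in each library (18.7% of all genes did) and were tested. Among these 2 were higher in replicate 2 (32.5% of all tested genes), 3 lower (23.2%) and 2 not past the exact binomial test, with a median log2 ratio of -0.15. Mir33, in an intron of the sterol regulator Srebf2, had 70 and 76 counts (log2 ratio -0.15, exact binomial test, adjusted p = 0.631). Mir378a, in an intron of the mitochondrial regulator Ppargc1b, had 20284 and 20286 counts (log2 ratio -0.28), and its level of 4606 and 3842 CPM was above that of Mir107 in both libraries. It shares 20 bases with Mir378c, so its count is uncertain. Mir34a had 2518 and 1971 counts (log2 ratio -0.63), and Mir29a 38253 and 65311 (0.49). Mir802, a microRNA of the liver and pancreas, had 0 and 2 counts.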
